A study of Mus musculus with 12 samples.

Results

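The genes described here are 38 genes of the endoplasmic reticulum (ER) stress response and the amino acid response. They were taken from a named list and matched to array probes through each probe's accession. All 38 were measured, out of 24242 genes tested. They comprise 14 ER chaperones and folding enzymes, 5 genes of ER-associated degradation, 4 ER stress sensors or their factors, and 15 genes of the Atf4 branch. Colonic organoids are self-organizing epithelial cultures grown in Matrigel from colon crypts. They were made from 3 wild-type and 3 Vdr-knockout (VDR KO) C57BL/6 mice. Vdr encodes the nuclear receptor for 1,25(OH)2D3 (calcitriol), the active form of vitamin D. Each mouse gave a vehicle (EtOH) culture and a culture given 100 nM calcitriol, renewed every 48 h, so that 4 groups of 3 arrays were available: wild-type vehicle, wild-type calcitriol, knockout vehicle and knockout calcitriol. The labels give the duration as 62 h in one place and 72 h in another. Mice with replicate numbers 1 and 3 were 2 months old and those with number 2 were 3 months old, in both genotypes. Replicate 1 was male and replicates 2 and 3 were female, per the labels, which do not describe the knockout allele further.

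Proteins that fold poorly in the ER are sensed by Ern1, Atf6 and Eif2ak3. Ern1 splices the mRNA of Xbp1, and Xbp1 and Atf6 then activate genes of chaperones and of ER-associated degradation, the route by which misfolded proteins leave the ER to be destroyed. Eif2ak3 phosphorylates the initiation factor eIF2, which lowers general translation and favours translation of Atf4, so Atf4 activity is set largely by translation. Lack of amino acids reaches Atf4 through another eIF2 kinase, without the chaperone arm. Secretory cells of the colon, goblet cells above all, are known for a high load of ER folding.

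The arms are known to act through different short DNA elements, and these are shown to set the members' promoters side by side. The windows searched ran from 250 bases before to 50 bases after each gene start (RefSeq, GRCm38.p6), on both strands, and 34 of the 38 members matched the table of windows. Hyou1, Atf6, Manf and Slc7a5 had no entry. The ER stress response element (ERSE), searched as CCAAT, any 9 bases and CCACG, lay in the windows of 9 members, against 0.119% of all 32851 windows. Of the 12 chaperone genes with a window, 7 held it, and of the 14 Atf4-branch genes with a window, 0 did. The capitals below mark the ERSE, printed 5′ to 3′ on the gene's own strand, with the element reading in either orientation.
Hspa5: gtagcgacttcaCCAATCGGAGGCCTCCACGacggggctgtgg
Hsp90b1, distal copy: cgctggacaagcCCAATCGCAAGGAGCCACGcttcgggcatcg
Hsp90b1, proximal copy: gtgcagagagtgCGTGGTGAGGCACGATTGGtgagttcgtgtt
Calr: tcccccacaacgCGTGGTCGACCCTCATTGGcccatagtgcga
Canx: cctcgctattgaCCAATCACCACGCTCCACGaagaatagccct
Pdia6: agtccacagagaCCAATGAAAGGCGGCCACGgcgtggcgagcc
Dnajc3: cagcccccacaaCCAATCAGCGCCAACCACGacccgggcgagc
Creld2: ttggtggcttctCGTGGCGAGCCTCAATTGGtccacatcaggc
These stretches lie at chr2:34772013-34772055 on the plus strand (Hspa5), chr10:86705626-86705668 and chr10:86705521-86705563 on the minus strand (Hsp90b1), chr8:84847063-84847105 on the minus strand (Calr) and chr11:50325788-50325830 on the minus strand (Canx). Those of Pdia6, Dnajc3 and Creld2 lie on the plus strand at chr12:17266479-17266521, chr14:118937815-118937857 and chr15:88819508-88819550. All are upstream of the gene start, the nearest being that of Hspa5, whose element begins 65 bases before it. The degradation genes Derl3 and Syvn1 held the other 2 ERSE windows.

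The element through which Atf4 is known to act with C/EBP proteins (CARE), searched as TGATGNAA, lay in the windows of 4 members, namely Asns, Chac1, Trib3 and Herpud1, against 3.97% of all windows. The variant ERSE-II, searched as ATTGG, any 1 base and CCACG, lay in the windows of Herpud1 and Dnajb11, against 0.0365% of all windows. Herpud1 thus held both an ERSE-II and a CARE, and the tRNA synthetase gene Gars, which is no member but is described further on, held a CARE. The capitals below mark the element.
Herpud1, ERSE-II: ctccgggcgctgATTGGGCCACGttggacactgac
Herpud1, CARE: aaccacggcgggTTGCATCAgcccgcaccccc
Asns, CARE: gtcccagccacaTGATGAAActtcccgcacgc
Chac1, CARE: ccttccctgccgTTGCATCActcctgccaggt
Gars, CARE: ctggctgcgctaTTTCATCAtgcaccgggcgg
The Herpud1 stretches lie at chr8:94386365-94386399 and chr8:94386305-94386336 on the plus strand. That of Asns lies at chr6:7693213-7693244 on the minus strand, that of Chac1 at chr2:119351037-119351068 on the plus strand and that of Gars at chr6:55037959-55037990 on the plus strand. A match is a description of the sequence and was not tested for binding.

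Levels are log2 processed signals minus the 75th percentile of the array, so they compare arrays for 1 gene and not 1 gene with another. All 38 members were well above background on all 12 arrays and none was saturated. Between 54.9% and 72.8% of spots were well above background per array, the highest in wild-type vehicle replicate 2. Vdr, the targeted gene, differed by -1.59 between knockout and wild type in vehicle (adjusted p = 0.324, and 0.0141 with replicate number as a block). Where its probe lies relative to the knocked-out part is not given in the sources used here. S100g, a calcium-binding protein gene known to respond to calcitriol, rose by 7.49 with calcitriol in wild type (adjusted p = 4.3e-10) and differed by 0.12 in the knockout. All 14 epithelial and colon markers were well above background on every array, as were 14 to 15 of 15 goblet and secretory markers. Of 14 plasma and immune cell markers, 6 to 11 were. Cd3e, Sdc1, Itgam, Csf1r, Cd68 and Fcer1g were above that limit on all 12 arrays. The plasma cell genes Jchain and Mzb1 were below it on all arrays, and the rest were above it on 1 to 8. Of 12 fibroblast and endothelial markers, 5 to 8 were, with Vim, Pecam1 and Kdr on all 12 arrays and Pdgfra and Lum on 0. The rest were above the limit on 1 to 11 arrays. In such whole-culture RNA, fewer cells of a type and less RNA per cell cannot be told apart. The arrays came from 3 slides, which did not hold the groups evenly. The vehicle and calcitriol arrays of a mouse lay on different slides in all 3 knockout mice and in wild-type mice 1 and 2, and 7 arrays shared the largest slide. Of the vehicle arrays, only replicate 3 of each genotype lay on the largest slide. Knockout vehicle replicates 1 and 2 were alone on their slide, so with a slide term the knockout vehicle level rests on replicate 3.

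In wild-type organoids, calcitriol changed none of the 38 members by limma's moderated test with Benjamini-Hochberg adjustment over all genes (0 of 38, against 0.153% of all genes called). With each mouse as a block, 0 of 38 were called as well, against 0.916% of all genes. At an unadjusted p under 0.05, 1 of 38 members passed and 3 did with the block, against 4.69% and 9.95% of all genes. The chaperones and the Atf4 branch had medians close to each other: -0.01 and -0.01, against -0.03 over all genes. Of their members, 6 of 14 and 7 of 15 lay above 0, against 43.4% of all genes. Single arrays parted them: without wild-type vehicle replicate 1 the medians were -0.016 and -0.19, and without wild-type calcitriol replicate 1 that of the Atf4 branch was 0.20. The plot of fitted differences by role shows this and the other comparisons.

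**Figure D1:**
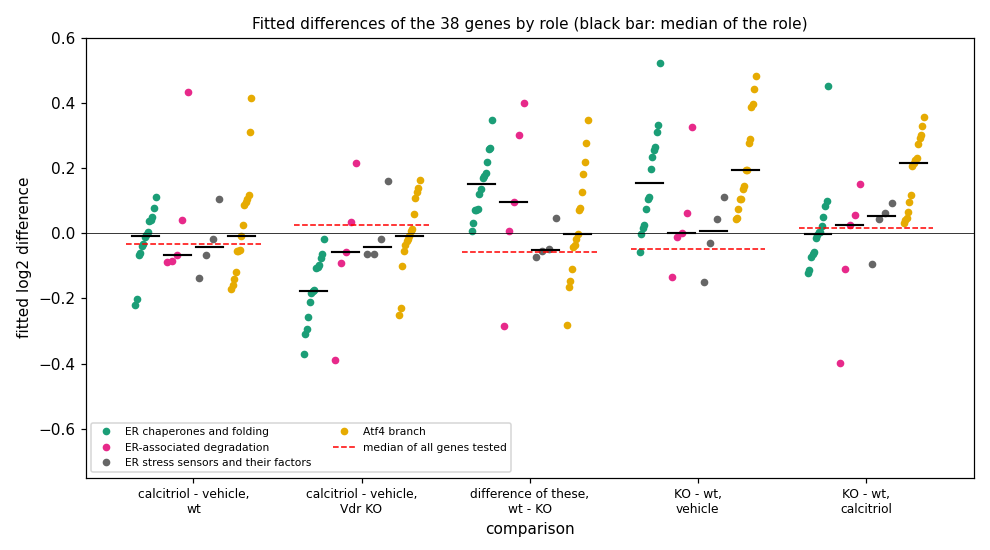
Fitted log2 differences (vertical axis) of the 38 genes in the 5 comparisons (horizontal axis), 1 point per gene and coloured by role. Black bars are the medians of a role and the red dashed line is the median of all 24242 genes tested. In the knockout, all 14 chaperones lie below 0 with calcitriol, and in both treatments all 15 genes of the Atf4 branch lie above 0 in knockout against wild type.

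The member with the lowest p in wild type was Herpud1, which encodes a membrane scaffold of the ER degradation complex and is a known target of both arms. It was singled out after its values were seen. In replicates 1 to 3 of wild type, Herpud1 was at 4.24, 4.45 and 4.55 with vehicle and at 4.82, 4.86 and 4.85 with calcitriol. In those of the knockout it was at 4.4, 4.29 and 4.55 with vehicle and at 4.42, 4.46 and 4.46 with calcitriol. The 3 wild-type calcitriol arrays thus lay above the other 9 arrays and close together, and the other 3 groups overlapped. Goblet and secretory markers lay higher in the same comparison, as given with the replicate numbers further on, and their part in the Herpud1 level was not tested. Calcitriol against vehicle in wild type was 0.43 (SE 0.11, 95% interval 0.19 to 0.67, 1.35-fold), higher in 3 of 3 mice, with an adjusted p of 0.373, which does not pass. The adjusted p was 0.0858 with mouse as a block and 0.0428 with mouse as a random effect, where it passed. It also passed in the blocked fit without replicate number 3 (0.50, adjusted p = 0.0076), in which 2241 of all genes were called. In that fit all vehicle arrays lay on other slides than the calcitriol arrays, so calcitriol and slide cannot be told apart. The blocked fit without knockout mouse 3 called Herpud1 too (adjusted p = 0.0466), among 358 of all genes. With slide as a block the difference was 0.37 (adjusted p = 1), and on the largest slide alone 0.30 (adjusted p = 0.986). In the knockout the same difference was 0.03 (95% interval -0.21 to 0.28). The difference between genotypes was 0.40 (95% interval 0.06 to 0.74, adjusted p = 1, and 0.509 with the block), higher in 3 of 3 replicate numbers. Knockout against wild type under calcitriol was -0.40 (adjusted p = 0.540, and 0.0789 with replicate number as a block), without overlap, which held for 1 of 38 members, against 3.63% of all genes.

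Groups that did not overlap in wild type, all calcitriol arrays above all vehicle arrays, occurred in 2 of 38 members, Herpud1 and Pdia6, against 4.80% of all genes. Pdia6, a disulfide isomerase, differed by 0.11 (95% interval -0.15 to 0.38). Hspa5, the main ER chaperone of the Hsp70 family, was at 6.27, 6.50 and 6.69 with vehicle and 6.25, 6.55 and 6.54 with calcitriol in wild type. These overlapped, with a difference of -0.04 (95% interval -0.48 to 0.40). Xbp1, whose total mRNA the array measures and not its splicing, was at 6.37, 6.05 and 5.89 with vehicle and 6.20, 6.05 and 5.87 with calcitriol. Its difference was -0.07 (95% interval -0.42 to 0.28).

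Among the Atf4 branch in wild type, Asns, which makes asparagine, was at 5.96, 6.08 and 6.59 with vehicle and 6.18, 6.57 and 6.81 with calcitriol. Each mouse was higher with calcitriol while the groups overlapped, giving 0.31 (95% interval -0.19 to 0.82, adjusted p = 0.993, and 0.429 with the block). On the largest slide alone the Asns difference was -0.066. That slide held only replicate 3 of wild-type vehicle, the highest of the 3 for Asns, against the calcitriol arrays of all 3 mice. Slc3a2, the heavy chain shared by several amino acid transporters, was at 4.80, 5.0 and 4.76 with vehicle and 4.41, 4.93 and 4.70 with calcitriol. It was lower in each mouse, with a difference of -0.17 (95% interval -0.50 to 0.16, adjusted p = 0.993), and of 0.0040 with slide as a block. Mthfd2, an enzyme of mitochondrial one-carbon metabolism, had the largest difference of the branch, 0.42 (95% interval -0.44 to 1.27, adjusted p = 0.998, and 0.419 with the block). The other members of the branch lay between -0.16 and 0.12.

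**Figure D2:**
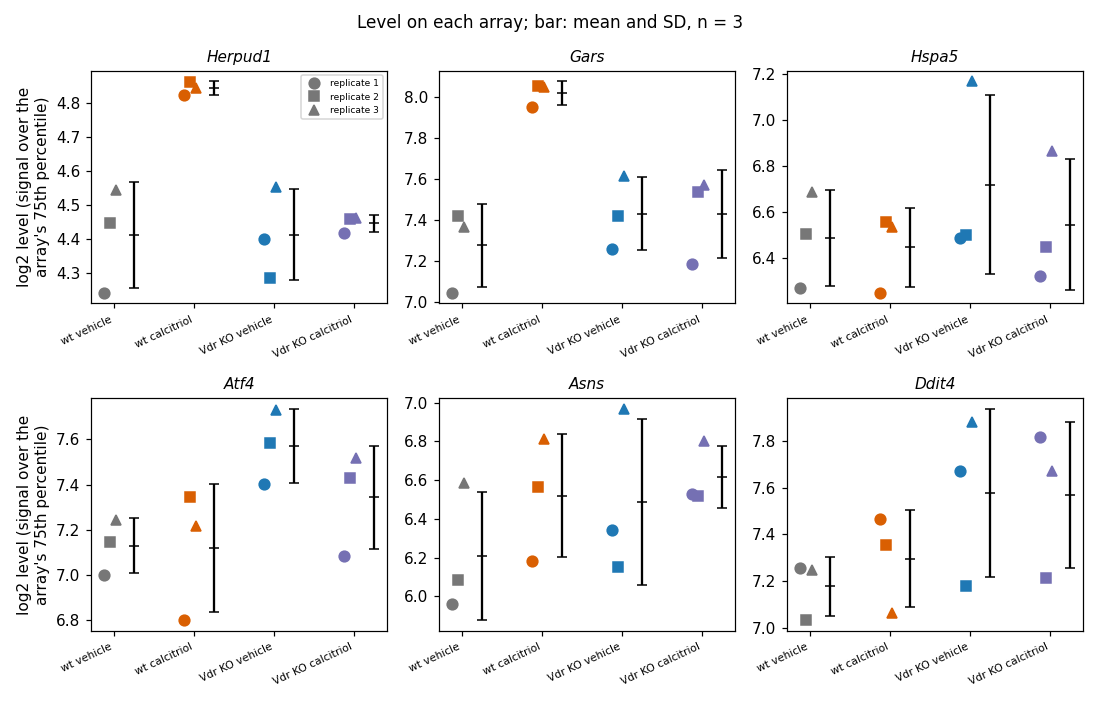
Log2 level (vertical axis) on each of the 12 arrays for Herpud1, Gars, Hspa5, Atf4, Asns and Ddit4, by group (horizontal axis) and by replicate number (marker shape), with the mean and SD of 3 arrays at the right of each group. Herpud1 and Gars are higher in all 3 wild-type calcitriol arrays than on the other 9, and Atf4 is higher in all 3 knockout vehicle arrays than in wild-type vehicle.

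In knockout organoids, the chaperones and the Atf4 branch differed in how their members lay, although 0 of 38 members passed the test, with or without the block (0.0% of all genes passed in either fit). At an unadjusted p under 0.05, 1 of 38 members passed without the block and 5 with it, against 5.62% and 8.12% of all genes (1363 and 1969 genes). All 14 chaperones were lower with calcitriol, with a median of -0.18, against 44.8% of all genes below 0 and a median of 0.03. Of these 14, 8 were lower in each of the 3 mice, against 13.6% of all genes. In the Atf4 branch 8 of 15 lay below 0 and the median was -0.01. Plasma and immune cell markers lay the other way over the same arrays, with 8 of 9 tested above 0 and a median of 0.55, as did 5 of 7 fibroblast and endothelial markers, with a median of 0.45. Their mean centred levels ran from -0.72 to -0.14 and from -0.44 to 0.05 in knockout vehicle, and from -0.22 to 0.56 and from -0.04 to 0.22 in knockout calcitriol. Of these 16 markers 0 were called, and their part in the chaperone levels was not tested. Knockout vehicle replicate 3 held the highest level of the 12 arrays for Hspa5, Hsp90b1, Pdia4, Pdia6, Sdf2l1 and Manf. Without it the chaperone median was -0.06 with 2 of 14 above 0, and that of the Atf4 branch was 0.13 with 12 of 15 above 0. With slide as a block the medians were -0.35 and -0.32, and on the largest slide -0.45 and -0.45. Knockout vehicle replicates 1 and 2 were alone on their slide, so in both settings the knockout vehicle level rests on replicate 3. The medians of the lists were apart over all arrays and close together in these settings, which cannot tell slide from that array.

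Pdia3, a disulfide isomerase that works with calnexin and calreticulin, was at 4.05, 4.17 and 4.12 in knockout vehicle and at 3.55, 3.58 and 4.10 in knockout calcitriol. In mice 1 and 2 it was lower by 0.49 and 0.59, and in mouse 3 by 0.03. The fitted difference was -0.37 (95% interval -0.72 to -0.02, adjusted p = 0.862, and 0.572 with the block). Without replicate number 3 the blocked fit gave -0.54 (adjusted p = 0.0039). That fit called 3094 of all genes and cannot tell calcitriol from slide. In wild type Pdia3 was at 4.08, 3.87 and 3.64 with vehicle and 3.60, 3.58 and 3.80 with calcitriol. This was a difference of -0.20 (95% interval -0.56 to 0.15), and of 0.087 with slide as a block. In the blocked fit without replicate number 3, with the same limit and 2241 of all genes called, it was -0.38 (adjusted p = 0.0226). The difference between the genotypes was 0.17 (95% interval -0.33 to 0.67). Hyou1, an ER chaperone that recharges Hspa5 with nucleotide, was at -1.07, -0.90 and -1.16 in knockout vehicle and at -1.40, -1.38 and -1.22 in knockout calcitriol. It was the only member whose knockout groups did not overlap, lower with calcitriol in 1 of 38, against 1.60% of all genes. The difference was -0.29 (95% interval -0.68 to 0.09). In wild type it was at -1.03, -0.89 and -1.25 with vehicle and -1.48, -1.04 and -1.32 with calcitriol, lower in each mouse, with a difference of -0.22 (95% interval -0.60 to 0.16).

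Hspa5 in the knockout was at 6.49, 6.50 and 7.17 with vehicle and 6.32, 6.45 and 6.86 with calcitriol. It was lower in each mouse, with a difference of -0.17 (95% interval -0.61 to 0.26), and mouse 3 was the highest in both treatments. Xbp1 in the knockout was at 6.42, 5.91 and 6.12 with vehicle and 6.25, 5.95 and 6.20 with calcitriol, a difference of -0.02 (95% interval -0.37 to 0.33). Among the Atf4 branch, Ddit3, the pro-apoptotic factor CHOP, was at 2.13, 1.78 and 2.40 in knockout vehicle and at 2.28, 2.00 and 2.53 in knockout calcitriol. It was higher in each mouse and the groups overlapped, giving 0.16 (95% interval -0.33 to 0.66), and -0.21 with slide as a block.

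The difference of the calcitriol effects, wild type minus knockout, was above 0 for all 14 chaperones (median 0.15), for 7 of 15 genes of the Atf4 branch (median -0.0014) and for 40.9% of all genes (median -0.06). With slide as a block, 14 of 14 and 15 of 15 were above 0, with medians of 0.56 and 0.42, and on the largest slide 14 of 14 and 15 of 15 were, with medians of 0.47 and 0.35. The lists parted over all arrays and not in these 2 settings. In both, the knockout vehicle level rests on replicate 3, so they cannot tell slide from that array. Again 0 of 38 members passed, against 0.0289% of all genes, and 0 of 38 against 0.235% with the block. At an unadjusted p under 0.05, 1 of 38 members passed and 2 did with the block, against 3.37% and 7.85% of all genes. The 95% interval spanned 0 for each of the 14 chaperones without the block, and for all but Manf with it. Of them, 7 were above 0 for all 3 replicate numbers, against 13.2% of all genes. The lowest p among the chaperones belonged to Hsp90b1 and Manf. Hsp90b1, the ER member of the Hsp90 family, was at 5.95, 5.75 and 5.83 in wild-type vehicle cultures, 5.82, 5.79 and 6.06 in wild-type calcitriol, 5.99, 5.93 and 6.54 in knockout vehicle and 5.86, 5.80 and 6.17 in knockout calcitriol. Knockout vehicle replicate 3 stood highest, and the difference of effects was 0.26 (95% interval -0.25 to 0.77). Manf, a small secreted ER protein, was at 3.86, 3.80 and 4.08 in wild-type vehicle cultures, 3.76, 3.85 and 4.25 in wild-type calcitriol, 3.91, 4.19 and 4.65 in knockout vehicle and 3.56, 3.88 and 4.37 in knockout calcitriol. Its difference of effects was 0.35 (95% interval -0.36 to 1.05, adjusted p = 1), positive for 3 of 3 replicate numbers. With the block its interval was 0.10 to 0.59 (adjusted p = 0.510). Ddit3 gave -0.28 (95% interval -0.98 to 0.42), and 0.24 with slide as a block. Without knockout vehicle replicate 3 the chaperone median of this difference was 0.09, with 12 of 14 above 0, and that of the Atf4 branch was -0.10, with 2 of 15 above 0. Without wild-type calcitriol replicate 1 the latter was 0.24.

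Without added hormone, the members of both arms were mostly higher in knockout than in wild type, and none passed the test (0 of 38, against 0.00413% of all genes, and 0 of 38 against 0.0165% with replicate number as a block). At an unadjusted p under 0.05, 1 of 38 members passed and 8 did with the block, against 8.65% and 15.2% of all genes. The median was 0.15 for the chaperones, with 12 of 14 above 0, and 0.19 for the Atf4 branch, with 15 of 15 above 0, against a median of -0.05 and 43.5% of all genes. Of the Atf4 branch, 7 of 15 were higher for all 3 replicate numbers, against 16.3% of all genes. These medians rested on single arrays and on the replicate number. For the Atf4 branch the median was 0.37 between the replicates numbered 1, with 15 of 15 above 0, and 0.35 between those numbered 3, with 15 of 15, but -0.14 between those numbered 2, with 7 of 15. Without wild-type vehicle replicate 1 the median was 0.01 with 9 of 15 above 0, and without knockout vehicle replicate 3 it was 0.04 with 10 of 15 above 0. The chaperone median was 0.07 with 10 of 14 above 0 without knockout vehicle replicate 3. With slide as a block, where the knockout vehicle level rests on replicate 3 alone, the medians were 0.40 for the chaperones and 0.62 for the Atf4 branch. Fibroblast and endothelial markers were lower in the same comparison, with 2 of 7 above 0 and a median of -0.35, as were plasma and immune cell markers, with 2 of 9 above 0 and a median of -0.24. Their part was not tested.

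Atf4 itself, the transcription factor of the branch, was the member with the lowest p in vehicle. Atf4 was at 7.0, 7.15 and 7.24 in wild-type vehicle and at 7.40, 7.58 and 7.73 in knockout vehicle. The groups did not overlap, which held for Atf4 and Dnajc3 (2 of 38 members higher, against 2.88% of all genes). The difference was 0.44 (SE 0.16, 95% interval 0.10 to 0.79, 1.36-fold), higher in 3 of 3 replicate numbers, with adjusted p = 0.566, and 0.294 with the block. A second Atf4 probe, also well above background on all 12 arrays, gave 0.07. Under calcitriol Atf4 was at 6.80, 7.34 and 7.22 in wild type and at 7.09, 7.43 and 7.52 in knockout, a difference of 0.22 (95% interval -0.12 to 0.57), and these groups overlapped. Calcitriol against vehicle was -0.01 in wild type (95% interval -0.36 to 0.34) and -0.23 in knockout (95% interval -0.58 to 0.12), so the difference of effects was 0.22 (95% interval -0.27 to 0.71).

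Dnajc3, a co-chaperone that also inhibits Eif2ak3, was at 0.69, 0.79 and -0.09 in wild-type vehicle and at 0.86, 1.16 and 0.94 in knockout vehicle. The low level of wild-type replicate 3 stands out, and the difference was 0.52 (95% interval -0.02 to 1.06, adjusted p = 0.585). Under calcitriol Dnajc3 was at 0.59, 0.54 and 0.16 in wild type and at 0.54, 0.88 and 1.24 in knockout, with a difference of 0.45 (95% interval -0.09 to 0.99). Ddit4, an inhibitor of mTOR signalling that Atf4 induces, was at 7.25, 7.03 and 7.25 in wild-type vehicle and at 7.67, 7.18 and 7.88 in knockout vehicle. It was higher for each replicate number, with overlapping groups, by 0.40 (95% interval -0.03 to 0.82, adjusted p = 0.595). Under calcitriol it was at 7.47, 7.35 and 7.06 in wild type and at 7.82, 7.22 and 7.67 in knockout, a difference of 0.27 (95% interval -0.15 to 0.70).

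Asns in the knockout was at 6.34, 6.15 and 6.97 with vehicle and 6.53, 6.52 and 6.80 with calcitriol. Knockout against wild type was 0.28 in vehicle (95% interval -0.23 to 0.78) and 0.09 under calcitriol (95% interval -0.41 to 0.60), with overlapping groups in both. Hspa5 was higher in knockout by 0.23 in vehicle (95% interval -0.21 to 0.67) and by 0.10 under calcitriol (95% interval -0.34 to 0.54). Hsp90b1 was higher by 0.31 in vehicle (95% interval -0.05 to 0.67, adjusted p = 0.620), with replicate 3 furthest apart. Xbp1 differed by 0.04 and 0.09 in the same comparisons.

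Under calcitriol, the chaperone median of knockout against wild type was -0.0016, with 7 of 14 above 0, while that of the Atf4 branch was 0.21, with 15 of 15 above 0, against a median of 0.02 and 53.9% of all genes. Of the Atf4 branch, 3 of 15 were higher for all 3 replicate numbers, against 17.1% of all genes. Goblet and secretory markers lay lower in the knockout here, with 2 of 15 above 0 and a median of -0.36, and their part was not tested. By the test, 0 of 38 members passed, against 0.206% of all genes, and 0 of 38 against 1.00% with the block. At an unadjusted p under 0.05, 1 of 38 members passed and 3 did with the block, against 2.99% and 7.53% of all genes. As in vehicle, the Atf4-branch median was 0.35 between the replicates numbered 1 and 0.28 between those numbered 3, and -0.05 between those numbered 2, where 4 of 15 lay above 0. Without wild-type calcitriol replicate 1 it was -0.041, and on the largest slide it was 0.01, with 9 of 15 above 0. The vehicle and calcitriol comparisons used different arrays of the same mice. The calcitriol comparisons within a genotype share these arrays with the genotype comparisons, so their values are set side by side and not combined.

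Slc3a2 was at 4.92, 5.05 and 5.01 in knockout vehicle and at 4.81, 4.88 and 5.23 in knockout calcitriol, and under calcitriol it was 0.29 higher in knockout than in wild type (95% interval -0.04 to 0.62). Ddit3 was at 1.89, 2.21 and 1.99 with vehicle in wild type and 1.78, 2.38 and 1.57 with calcitriol, and under calcitriol it was 0.36 higher in knockout (95% interval -0.14 to 0.85). The sign differed in replicate 2, which was lower in knockout, for Ddit3 and Slc3a2 alike. Dnajb9, an ER co-chaperone that restrains Ern1, was at 1.61, 1.26 and 0.99 with vehicle in wild type and 1.46, 1.09 and 1.13 with calcitriol. In the knockout it was at 1.49, 1.08 and 1.29 with vehicle and 0.98, 0.88 and 1.45 with calcitriol, and its difference under calcitriol was -0.12 (95% interval -0.57 to 0.32).

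The replicate number accounted for more of the spread of these genes than either factor of the study. It took a median of 64.5% of a member's sum of squares over the 12 arrays, against 31.9% for all genes, while genotype took 5.81% and treatment 2.09%, against 6.94% and 5.60%. The share was 73.6% in the Atf4 branch and 56.2% in the chaperones. It exceeded 50% in 22 of 38 members and in 11 of 15 genes of the Atf4 branch, against 32.9% of all genes. Replicate 1 was the lowest of the 3 in all 4 groups for 14 of 38 members, or 36.8%, and for 7 of 15 of the Atf4 branch, against 13.2% of all genes. The same number stands for a different mouse in each genotype, so this ordering was shared by wild-type and knockout mice.

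**Figure D3:**
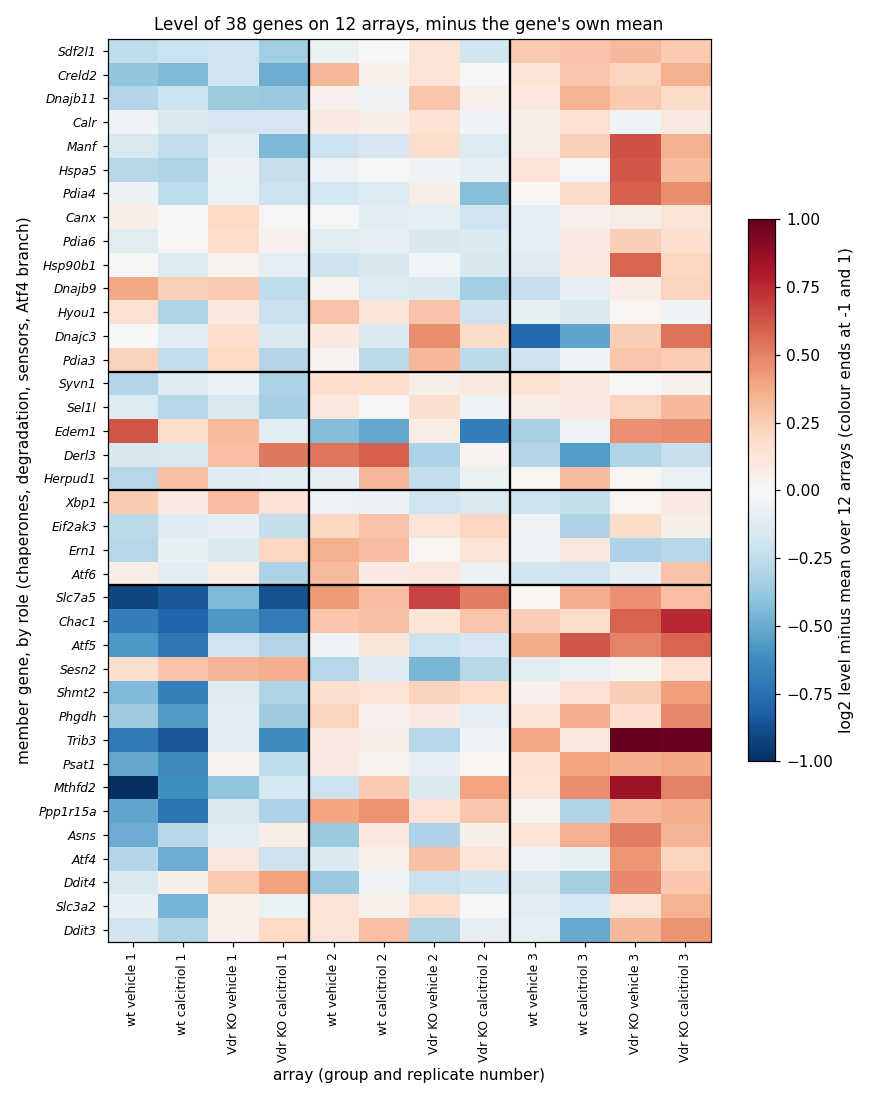
Log2 level minus the gene's own mean over 12 arrays (colour, red higher and blue lower, ending at -1 and 1) for the 38 genes (vertical axis, by role and, within a role, by the share of spread that goes with replicate number) on the 12 arrays (horizontal axis, ordered by replicate number). The 4 arrays of replicate 1 are blue for most of the Atf4 branch in both genotypes and both treatments, while Sesn2 and Xbp1 are red there.

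The members that followed the replicate number most were Slc7a5 (91.7%), the light chain that pairs with Slc3a2, and Chac1 (91.6%), which breaks down glutathione. Chac1 was at 3.00, 3.96 and 3.92 in wild-type vehicle cultures, 2.89, 3.98 and 3.86 in wild-type calcitriol, 3.10, 3.82 and 4.27 in knockout vehicle and 2.98, 3.95 and 4.43 in knockout calcitriol. Replicate 1 was the lowest in every group, and its 4 arrays lay below the other 8. Slc7a5 showed the same, with replicate 1 between -0.08 and 0.39 and the other 8 arrays between 0.85 and 1.51. Among the chaperones, Sdf2l1 (89.5%) and Creld2 (86.4%) had the largest shares. Sesn2, a stress protein that restrains mTOR signalling, and the degradation lectin Edem1 ran otherwise, with replicate 2 lowest in all 4 groups, as did Hsp90b1. Ddit3 (2.3%), Pdia3 (4.6%) and Herpud1 (7.3%) followed the number least.

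The mean centred level of the Atf4 branch, each gene minus its mean over 12 arrays, was -0.45, 0.03 and 0.07 in wild-type vehicle cultures, -0.51, 0.14 and 0.10 in wild-type calcitriol, -0.09, -0.02 and 0.43 in knockout vehicle and -0.21, 0.07 and 0.44 in knockout calcitriol. For the chaperones it was -0.05, 0.01 and -0.06, then -0.17, -0.07 and 0.06, then -0.00058, 0.11 and 0.29, and then -0.23, -0.14 and 0.25, in the same order of groups. The Atf4 branch thus spanned a wider range than the chaperones, both wild-type arrays of replicate 1 were its lowest, and both knockout arrays of replicate 3 were the highest of either list. Goblet and secretory markers also went with the replicate number. Their mean centred level was 0.30, 0.11 and -0.53 in wild-type vehicle cultures, 0.62, 0.41 and -0.12 in wild-type calcitriol, 0.17, -0.05 and -0.54 in knockout vehicle and -0.01, -0.03 and -0.33 in knockout calcitriol. Replicate 3 was the lowest in each group. In wild type these markers also lay higher with calcitriol, with a median difference of 0.33 and 12 of 15 above 0, against 43.4% of all genes. Of the 15, 1 was called, higher, against 0.153% of all genes called. With mouse as a block 4 rose and 1 fell, against 0.916% of all genes called. The part of these markers in the levels of the members was not tested. Replicates 1 and 3 were of the same age and not of the same sex. In each group the Atf4 branch lay lower in replicate 1 than in replicate 3, a gap between cultures from mice of equal age. Each number stands for a different mouse in each genotype, while age and sex are the same for both. The part of mouse, age, sex or culture in the replicate number was not tested.

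**Figure D4:**
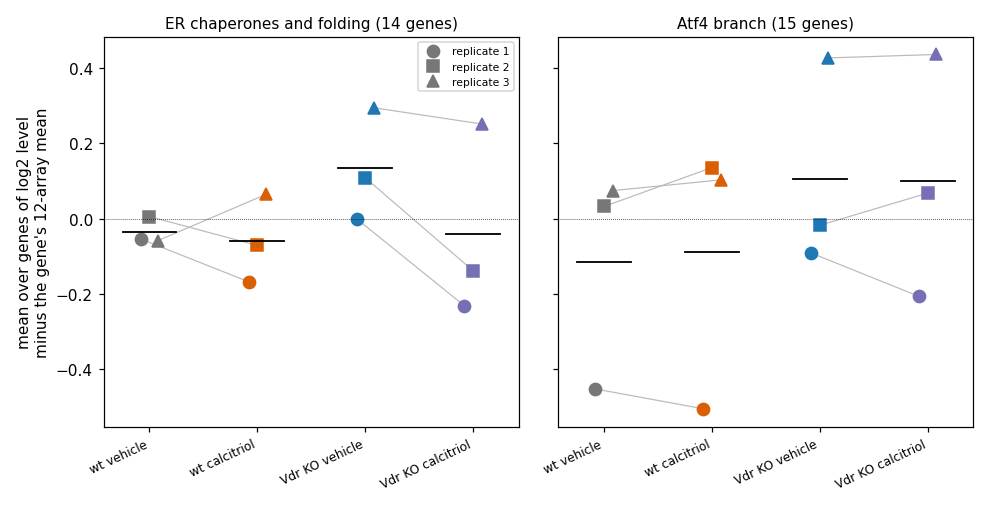
Mean over genes of the log2 level minus the gene's mean over 12 arrays (vertical axis) for the 14 chaperones and the 15 Atf4-branch genes on each array, by group (horizontal axis). Marker shape gives the replicate number, black bars are means of 3 arrays and grey lines join the cultures of 1 mouse; in the Atf4 branch the points of replicate 1 are lowest in all 4 groups.

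Split by promoter element, the 9 members with an ERSE had a median difference with calcitriol of -0.01 in wild type and -0.08 in the knockout, with 1 of 9 above 0 in the latter, and the 25 members with a window but no ERSE had -0.02 and -0.02, with 9 of 25 above 0. The 4 members with a CARE ranged from -0.14 to 0.43 in wild type, the highest being Herpud1. In the list of other amino acid response genes, 13 of 34 genes with a window held a CARE, or 38.2%, against 4.51% of all genes with a window. The 12 of these that were tested had a median of 0.08 in wild type and ranged from -0.86 to 0.74, the highest being Gars.

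The sensors Ern1, Eif2ak3 and Atf6 and the factor Xbp1 ranged from -0.15 to 0.16 over the 5 comparisons. In ER-associated degradation besides Herpud1, the ubiquitin ligase Syvn1 and its partner Sel1l ranged from -0.11 to 0.10 over the 5 comparisons. Edem1 was -0.39 with calcitriol in the knockout and 0.33 in knockout against wild type in vehicle. Derl3, which belongs to the derlin family, was 0.22 and -0.13 in the same comparisons.

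Of the wider pathways, 40 other ER folding and degradation genes and 44 other amino acid response genes were tested. In the ER list, 0 of 40 passed in any of the 5 comparisons, with or without the block, and its medians lay between -0.03 and 0.07. Before adjustment, 0 to 1 of the 40 had a p under 0.05 per comparison, against 2.99% to 8.65% of all genes, and 1 to 5 did with the block, against 7.53% to 15.2%. In the amino acid list, 0 of 44 passed without the block, and with it 1 of 44 rose with calcitriol in wild type (0.916% of all genes were called there) and the same gene was lower in knockout under calcitriol. This gene was Gars, glycyl-tRNA synthetase, which charges tRNA with glycine. Gars was at 7.05, 7.42 and 7.37 with vehicle in wild type and 7.95, 8.05 and 8.05 with calcitriol. In the knockout it was at 7.26, 7.42 and 7.61 with vehicle and 7.18, 7.54 and 7.57 with calcitriol. As for Herpud1, the 3 wild-type calcitriol arrays lay above the other 9.

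Calcitriol against vehicle for Gars in wild type was 0.74 (SE 0.14, 95% interval 0.44 to 1.04, 1.67-fold), by 0.91, 0.63 and 0.68 in mice 1 to 3, with adjusted p = 0.0860, and 0.0133 with mouse as a block. With mouse as a random effect Gars passed as well (adjusted p = 0.0037). Leaving out any 1 of the 3 wild-type mice from the blocked fit ended the call, with adjusted p of 0.137, 0.108 and 0.0793. The differences were then 0.66, 0.79 and 0.77. Leaving out any 1 of the 3 knockout mice kept the call, with adjusted p of 0.0247, 0.0458 and 0.0073. Without replicate numbers 1, 2 or 3 the adjusted p was 0.217, 0.384 and 0.0028, the last in the fit that cannot tell calcitriol from slide. With slide as a block the wild-type difference was 0.77 (adjusted p = 0.399), and on the largest slide 0.65. In the knockout the difference was -0.0010 (95% interval -0.30 to 0.30). Knockout against wild type under calcitriol was -0.59 (adjusted p = 0.253, and 0.0125 with the block). The difference of calcitriol effects was 0.74 (95% interval 0.32 to 1.17), with adjusted p = 1, and 0.137 with the block, so a difference between genotypes in the response was not called. The other 11 aminoacyl-tRNA synthetases of the list had a median of 0.06 in wild type, 7 of 11 above 0, with a smallest adjusted p of 0.281 with the block.

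In vehicle, 40 of 44 genes of the amino acid list were above 0 in knockout against wild type, with a median of 0.19, against 43.5% of all genes, and 0 of 44 passed. Between the replicates numbered 2 the median was 0.085, with 26 of 44 above 0. Before adjustment, 1 of 44 had a p under 0.05 and 9 of 44 did with the block, against 8.65% and 15.2% of all genes. With calcitriol in wild type these counts were 3 and 10 of 44, against 4.69% and 9.95%. In the knockout they were 0 and 1, against 5.62% and 8.12%. For the difference of effects they were 2 and 3, against 3.37% and 7.85%. Between genotypes under calcitriol they were 2 and 6, against 2.99% and 7.53%.

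For 7 members the array carried a second probe. Those of Pdia6, Dnajb9, Atf4, Psat1 and Phgdh, all well above background on 12 arrays, differed in sign from the chosen probe in at least 1 comparison. With calcitriol in wild type, for example, Pdia6 gave -0.03 against 0.11 and Psat1 -0.16 against 0.02, and for the difference of effects Atf4 gave -0.13 against 0.22. The second probe of Slc7a5, dimmer and above background on 11 arrays, gave 1.69 in wild type against 0.10 for the first. In the knockout it gave 0.31 against -0.25, so its sign differed as well. That of Dnajb11 was above background on 2 arrays and did not enter the test. For Slc7a5 and the first 5 of these genes, the direction in at least 1 comparison therefore depended on the probe. For Phgdh the values of unlike sign lay near 0, such as 0.001 against -0.05 in wild type.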

How the data were processed

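RNA of 12 cultures (100 ng each) was labelled with Cy3 and hybridised 1 sample per Agilent array, per the labels. The authors deposited scanner output of Feature Extraction 11.5.1.1, whose spot intensity is background-subtracted processed signal per the file headers; probe annotation refers to mm9. The deposited intensity was taken as log2 minus the array's 75th percentile. Of 55681 probes, 33406 exceeded background by the scanner's own call on every array of some group, and each gene took its probe with the highest mean level. limma 3.58.1 (R 4.3.3) was fitted to 4 group means (lmFit, eBayes with a variance trend, 2-sided, Benjamini-Hochberg over 24242 genes, threshold 0.05). The script was tested on simulated data.

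Same-numbered arrays deviated together: cultures of 1 mouse correlated at 0.10 to 0.59, and the same numbers of wild type and knockout at 0.13 to 0.64. So a second fit used mouse (calcitriol effects) or replicate number (genotype) as a block; this is the block named above. The fit to group means had no mouse term, so its p-values treat both cultures of 1 mouse as independent. With mouse as a block, p-values rest on the spread of the differences within mice. With replicate number as a block, they rest on the spread left after the number, and both cultures of 1 mouse again count as independent. There were 3 mice per genotype. Alternatives were slide, normexp background (offset 50, on median signals, not the mean signals first planned), median or quantile scaling, no filter, mean over probes, only the arrays compared, and leaving out arrays, replicate numbers or mice, the last with the block chosen after seeing the data.

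Values on every array were given for Hspa5, Xbp1, Atf4, Ddit3, Asns and Ddit4, and for the 2 chaperones and 2 Atf4-branch genes with the smallest p in each comparison; other lists' genes were named where called. Members and lists were chosen with earlier results of these data known. Precision is limited by the number of arrays.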

Additional observations from a re-analysis of the deposited data

How the results depend on the processing

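Precision was limited by 3 mice per genotype. With the replicate block, 0 members were called in each comparison, as without it. With mouse as a random effect, 1 member was called in wild type (Herpud1). Leaving out arrays, mice or numbers gave 0 to 3 members called in wild type and 0 to 4 in the knockout. The highest counts came with the block and without replicate number 3, where 2241 and 3094 of all genes were called. In wild type these held Herpud1, Mthfd2 and Pdia3, and in the knockout Pdia3, Edem1, Manf and Mthfd2. Without number 3 all vehicle arrays lay on other slides than the calcitriol arrays, so slide and calcitriol cannot be told apart. Without knockout mouse 3, the block called Herpud1 in wild type. Every other setting gave 0. Where no cause is named below, the cause was not tested.

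Scaling arrays to the median moved the median of all genes to 0.48 in wild type, -0.26 in the knockout, 0.74 for the difference of effects, 0.73 in vehicle and -0.0011 under calcitriol. The chaperone medians were then 0.50, -0.46, 0.95 and 0.93 in the first 4, and those of the Atf4 branch 0.50, -0.30, 0.80 and 0.97, to be read against those shifts. The calcitriol differences in wild type of Hyou1 (0.29), Pdia3 (0.31) and Slc3a2 (0.34), and for Ddit3 the knockout difference (-0.12) and the difference of effects (0.52), changed sign.

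In both slide settings the knockout vehicle level rests on replicate 3 alone, and on the largest slide so does that of wild-type vehicle. With slide as a block, the chaperone median was -0.35 in the knockout, 0.56 for the difference of effects and 0.40 in vehicle, and that of the Atf4 branch 0.12 in wild type, -0.32, 0.42 and 0.62. On the largest slide the chaperone medians were -0.45, 0.47, 0.32 and, under calcitriol, -0.12, and those of the Atf4 branch -0.12 in wild type, -0.45 in the knockout and 0.35 for the difference. The signs of Pdia3 (0.087 and 0.021) and of Ddit3 in the knockout (-0.21 and -0.26) and in the difference (0.24 and 0.18) turned in both, of Slc3a2 (0.0040) with the block and of Asns (-0.066) on the largest slide. The difference-of-effects medians were 0.17 and 0.059 with normexp, and 0.12 for the chaperones with quantile scaling.

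Leaving out arrays, mice or numbers moved the chaperone median from -0.08 to 0.08 in wild type, from -0.33 to -0.057 in the knockout, from 0.062 to 0.30 for the difference and from -0.12 to 0.11 under calcitriol. That of the Atf4 branch moved from -0.19 to 0.20, from -0.18 to 0.17, from -0.17 to 0.24 and from -0.041 to 0.35. Dnajb9 under calcitriol moved from -0.40 to 0.080, and was above 0 without replicate number 1 (0.059) or knockout mouse 1 (0.080).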
